A study of Mus musculus with 6 samples.

Results

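The genes described here are 31 genes of mitosis, which encode cyclins, the kinase CDK1, the CDC25 phosphatases, the Polo, Aurora and NEK2 kinases, the spindle checkpoint, the anaphase machinery and proteins of the spindle and of cell division. They were taken by gene name, and all 31 stand in the table of 19680 genes. RNA was sequenced from B cells of the germinal center (GC), which divide fast while they mutate their antibody genes. The 3 cKO libraries came from Senp1flox/flox Cγ1-Cre mice and the 3 WT libraries from Senp1flox/flox mice with no Cre, so both groups carry the floxed gene, and Cre and the loss of Senp1 come together in cKO and cannot be told apart. All mice were C57BL/6, 6 to 8 weeks old, and received 100 µg of the hapten-protein antigen NP-CGG into the abdominal cavity. B220+ CD38- FAS+ cells were sorted from the spleen on day 14. Cγ1-Cre is active in B cells that transcribe the IgG1 constant region, a class that includes most GC B cells of such a response. Senp1 encodes a protease that takes the small protein SUMO off its targets, and the comparison asks which transcripts differ once it is deleted.

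Mitosis begins when cyclin B binds CDK1 and CDC25 phosphatases remove the inhibitory phosphates that hold the kinase back. Polo and Aurora kinases then build the spindle, and the checkpoint kinases BUB1, BUBR1 and TTK delay anaphase until every kinetochore is attached. The ubiquitin ligase APC/C with CDC20 finally destroys securin and cyclin B, which frees separase and lets the sister chromatids part. Transcription of these genes peaks in G2 and mitosis. It is driven by NF-Y on CCAAT boxes and by the MuvB complex with B-MYB and FOXM1 on an element called the cell cycle homology region, so the genes commonly move together. In germinal centers the dividing cells are found mainly in the dark zone.

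The reads on genes numbered 9657005, 3019152 and 3082897 in cKO libraries 1 to 3, against 10339054, 5160902 and 6528052 in WT libraries 1 to 3. Values are normalized counts, which are reads divided by a size factor for each library, and errors are SDs over n = 3 libraries per group. Whether a library stands for a single mouse is not stated, and the p-values therefore reflect only how much these 6 libraries vary. Senp1 was lower in every cKO library (373, 425 and 398) than in every WT library (915, 868 and 891), the direction its label gives, although its limma adjusted p over all genes was 0.111. The GC B cell genes Bcl6, S1pr2, Rgs13, Gcsam, Mybl1 and Fas were present in all 6 libraries at 456 or more normalized counts. Mef2b, another GC transcription factor, was at most 5.69 in any library and had 0 reads in WT libraries 2 and 3.

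All 31 mitotic genes had lower means in cKO, and none passed the test. On the log2(normalized count + 1) scale the fold changes of cKO over WT ran from -0.76 for Hmmr to -0.13 for Cdc25b, with a median of -0.41. Over all 14678 genes tested the median was -0.0019, and 50.2% had a negative fold change. Among the 7030 genes that averaged 100 normalized counts or more, as all 31 did, the median was -0.035 and 56.7% were negative. limma called 0 of the 31 at a Benjamini-Hochberg adjusted p under 0.05 over all genes, against 0% of all genes, and the adjusted p-values of the 31 ran from 0.915 to 0.974. At an unadjusted p under 0.05 only Hmmr was lower, 1 of 31, against 2.17% of all genes. Every one of the 31 overlapped between the groups, while 5.28% of all genes had each cKO library below each WT library. On read counts recovered from the table, edgeR's quasi-likelihood test called 0 of the 31 and 0% of all genes. At an unadjusted p under 0.05 by edgeR, 0 of the 31 were lower, against 2.23% of all genes. DESeq2 called 0 of the 31 and 0.197% of all genes. At an unadjusted p under 0.05 by DESeq2, 1 of the 31 was lower, against 1.07% of the 19671 genes given a p, low counts included. The authors' deposited table lists 0 of the 31 and 0.197% of its genes at an adjusted p under 0.05. Its log2 fold changes and adjusted p-values for the 31 match those of the DESeq2 run, so it is not a separate result.

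**Figure D1:**
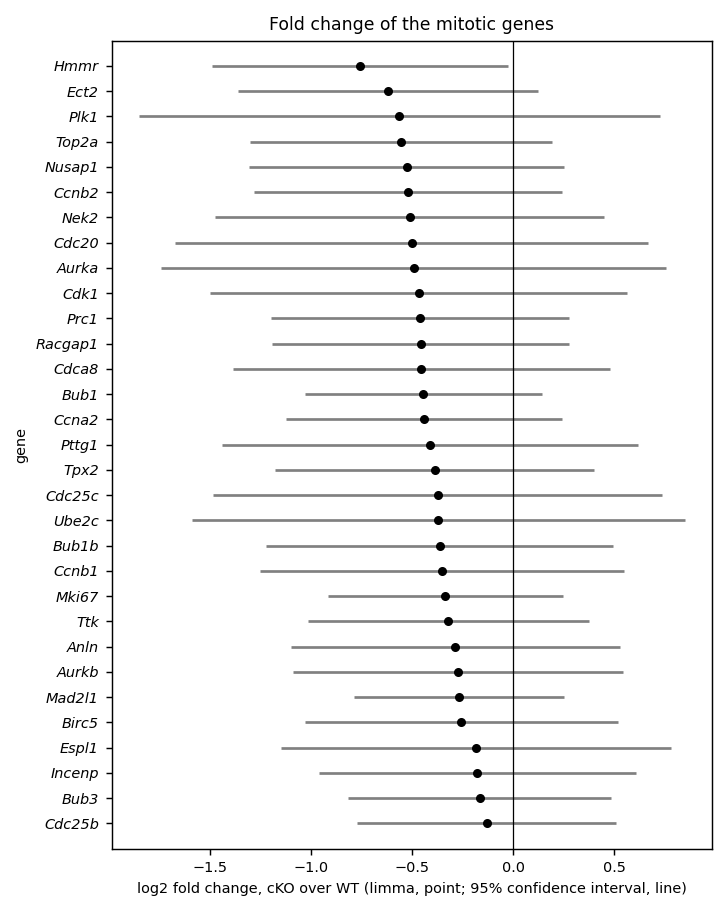
Log2 fold change of cKO over WT (x axis) for each of the 31 mitotic genes (y axis), as the limma estimate (point) with its 95% confidence interval (line). Every point lies left of 0 and 30 of the 31 intervals cross it.

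The libraries differed from each other more than the genotypes did, and most of the 31 genes ranked them alike. As a level for each library, the median over the 31 genes of the log2 deviation from each gene's mean was 0.49, -0.86 and -0.21 in cKO libraries 1 to 3, against 0.68, 0.28 and -0.35 in WT libraries 1 to 3. The group means of this level were -0.19 ± 0.68 in cKO and 0.21 ± 0.52 in WT (SD, n = 3), so the difference was smaller than the spread within either group. WT library 1 was highest for 29 of the 31 genes and cKO library 2 lowest for 30. cKO library 2 lay below all 3 WT libraries for all 31 genes. cKO library 3 was above WT library 3 for 23 of the 31, and cKO library 1 was above WT library 2 for 24. For 18 genes the full order from high to low was the same, namely WT 1, cKO 1, WT 2, cKO 3, WT 3 and cKO 2. As a share of all reads, the 31 genes together made up 0.772%, 0.315% and 0.428% in cKO libraries 1 to 3, against 0.915%, 0.656% and 0.454% in WT libraries 1 to 3.

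**Figure D2:**
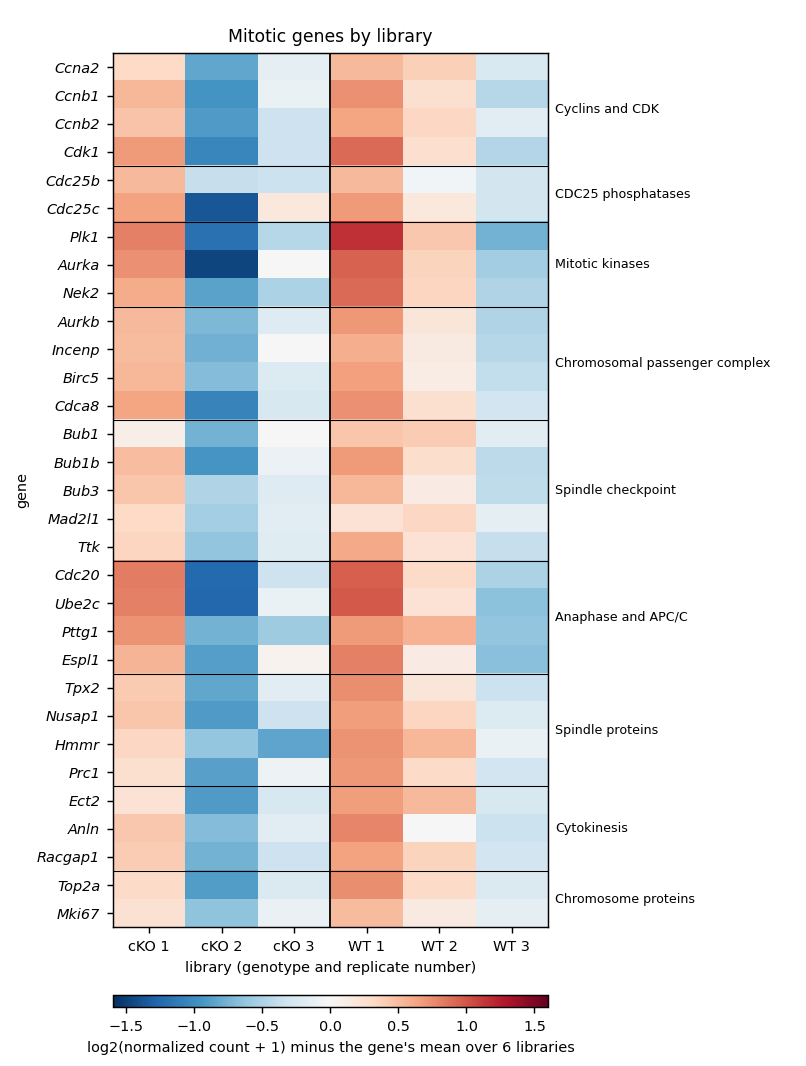
Log2(normalized count + 1) of each mitotic gene (rows, grouped by role) in each library (columns, cKO left of WT) minus the gene's mean over the 6 libraries, from blue (low) to red (high). The column of cKO library 2 is blue throughout and those of cKO library 1 and WT library 1 are red, which holds in every role.

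Other measures also varied between libraries. The mitochondrial share and naive B sum were lowest in WT 1, cKO 1 and WT 2, which had the highest mitotic levels. The share of reads on mitochondrial genes was 3.66%, 12.3% and 19.1% in cKO libraries 1 to 3, against 2.71%, 7.92% and 9.83% in WT libraries 1 to 3, lowest in the 2 libraries numbered 1 and highest in cKO library 3. Of the markers of naive B cells 6 of 6 were found, all with higher cKO means. They summed to 3963, 9222 and 5564 in cKO libraries 1 to 3, against 2328, 4286 and 4969.6 in WT libraries 1 to 3. From low to high these sums ran WT 1, cKO 1, WT 2, WT 3, cKO 3 and cKO 2. This was the order of the mitotic level from high to low, except that cKO library 3 and WT library 3 changed places. Of the T cell markers 8 of 8 were found, 6 with positive log2 fold changes. They summed to 752, 1547 and 509 in cKO libraries 1 to 3, against 667, 688 and 601 in WT libraries 1 to 3. Lck was the largest part of each sum, with 563, 691 and 470 in cKO, against 484, 574 and 498 in WT. Each T cell marker was highest in cKO library 2, and those of low count rose more there than the sum. Cd3e, for example, had 27.1, 140 and 6.13 in cKO, against 20.7, 12.8 and 5.98 in WT. Cd3d, Cd3g and Cd8a were at 0 in cKO library 3. The macrophage markers (7 of 7 found, all with higher cKO means) summed to 318, 448 and 292 in cKO libraries 1 to 3, against 296, 209.7 and 108 in WT libraries 1 to 3, with C1qc at 0 in cKO library 3 and WT library 3. Of the erythroid markers 6 of 6 were found and 5 tested, 4 with positive log2 fold changes. They summed to 32.5, 36.1 and 133 in cKO libraries 1 to 3, against 38.4, 43.6 and 56.4 in WT libraries 1 to 3. The sum was highest in cKO library 3. Of the plasma cell markers 4 of 4 were found, 2 with positive log2 fold changes. They summed to 6722, 14776 and 6730.3 in cKO libraries 1 to 3, against 8286, 7835 and 11912 in WT libraries 1 to 3. This sum was again highest in cKO library 2. Jchain was most of it in every library, with 5765, 13478 and 5836 in cKO, against 7012, 6937 and 10944 in WT. The neutrophil markers (4 of 5 found) stayed between 12.3 and 83.5 in cKO and between 10.3 and 84.1 in WT. The GC B markers (7 of 7 found, 1 with a higher cKO mean) summed to 9578, 6292 and 7423 in cKO libraries 1 to 3, against 10243, 10837 and 9567 in WT libraries 1 to 3. cKO library 2, with the lowest mitotic level, thus had the highest naive B, T cell, macrophage and plasma cell sums and the lowest GC B sum, and the part of these in the mitotic genes was not tested. In bulk RNA, fewer dividing cells and less mitotic RNA per cell cannot be told apart.

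**Figure D3:**
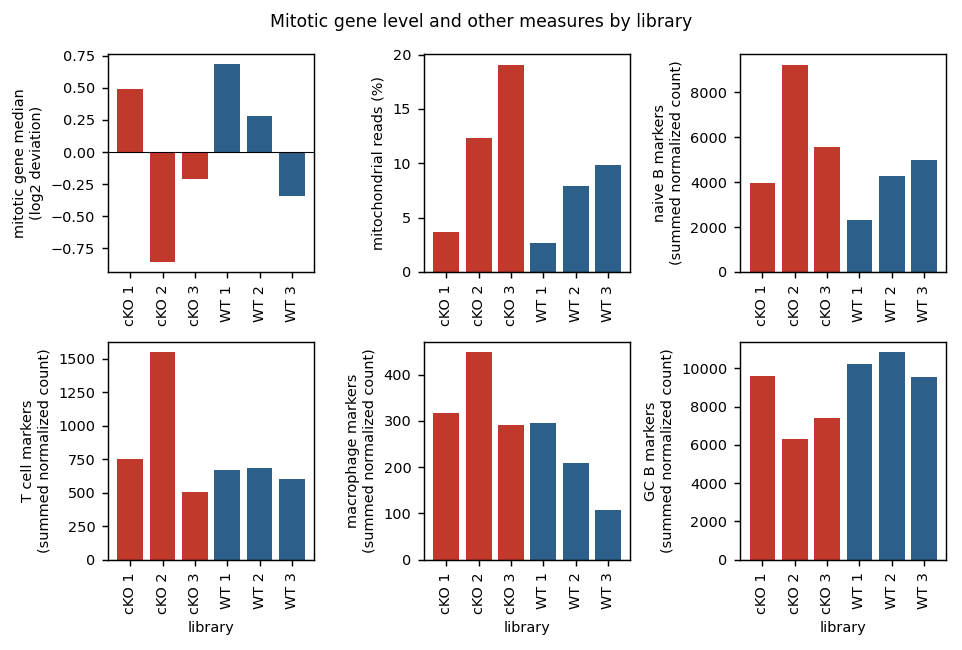
Bars give, for each library (x axis, cKO in red left of WT in blue), the median log2 deviation of the 31 mitotic genes, the share of reads on mitochondrial genes and the summed normalized counts of 4 marker lists. cKO library 2 has the lowest mitotic bar (-0.86) and the tallest naive B, T cell and macrophage bars.

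Among the cyclins and their kinase, the 4 fold changes had a median of -0.45. Ccna2, the cyclin of S phase and early mitosis, had 1362, 615 and 985 normalized counts in cKO libraries 1 to 3, against 1568, 1429 and 924 in WT libraries 1 to 3. Only cKO library 2 lay outside the WT range. Ccnb2, one of the B cyclins that activate CDK1, had 899, 351 and 521 in cKO, against 1018, 828 and 577 in WT. Here cKO libraries 2 and 3 were both below the lowest WT library and cKO library 1 was above WT libraries 2 and 3. Ccnb1, the other B cyclin, had 826, 292 and 529 in cKO, against 946, 679 and 414 in WT, with cKO library 3 above WT library 3. Cdk1, the kinase itself, had 881, 264 and 433 in cKO, against 1024, 658 and 396 in WT. The log2 fold changes ± SE were -0.44 ± 0.30 for Ccna2, -0.52 ± 0.33 for Ccnb2, -0.35 ± 0.40 for Ccnb1 and -0.47 ± 0.45 for Cdk1, and none passed.

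The CDC25 phosphatases switch CDK1 on. Cdc25b, which starts that process, had the fold change nearest to 0 of all 31 genes (-0.13 ± 0.28), with 2015, 1086 and 1101 normalized counts in cKO libraries 1 to 3, against 2017, 1365 and 1148 in WT libraries 1 to 3. The libraries numbered 1 were the highest of each group at almost the same level. Cdc25c, which completes it, had 179, 43.7 and 129 in cKO, against 184, 129 and 93.1 in WT. The cKO library 2 value rests on 23 reads (exact 95% Poisson interval 14.6 to 34.5, counting error only), the fewest of any of the 31 genes in any library.

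Of the Polo, Aurora A and NEK2 kinases, Plk1 and Aurka had the widest spread of the 31 between libraries. Plk1, the Polo kinase of mitotic entry and spindle assembly, had 679, 169 and 284 normalized counts in cKO libraries 1 to 3, against 874, 524 and 229.8 in WT libraries 1 to 3. Its WT libraries alone covered the whole cKO range except cKO library 2, and its log2 fold change of -0.56 had an interval of -1.85 to 0.73. Aurka, the Aurora kinase of the spindle poles, had 491, 106 and 294 in cKO, against 569, 377 and 199.9 in WT. Nek2, a kinase that separates the centrosomes, had 933, 342 and 437 in cKO, against 1166, 784 and 443 in WT, with cKO libraries 2 and 3 both below the lowest WT library, cKO library 3 by little. The fold change was -0.49 ± 0.55 for Aurka and -0.51 ± 0.42 for Nek2.

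The chromosomal passenger complex, in which the kinase AURKB is held by INCENP, survivin and borealin to correct faulty attachments, had fold changes nearer to 0, none of which passed. Aurkb had 699.5, 294 and 421 in cKO, against 789, 555 and 349 in WT (log2 fold change -0.27 ± 0.36). Incenp, the scaffold, had 1697, 700.4 and 1185 in cKO, against 1781, 1321 and 868 in WT (-0.18 ± 0.34). In both genes the libraries of each group numbered 1 were highest and cKO library 3 was above WT library 3. Birc5, which encodes survivin, had 792, 339.7 and 472 in cKO, against 869.5, 595 and 418 in WT (-0.26 ± 0.34). Cdca8, which encodes borealin, had 1001, 307 and 541 in cKO, against 1074, 768 and 521 in WT (-0.45 ± 0.41), the lowest fold change of the complex. The median of the complex was -0.26, and 0 of the 4 passed.

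The spindle checkpoint genes had a median of -0.32. Bub1, a kinetochore kinase, had 460.4, 256 and 429 normalized counts in cKO libraries 1 to 3, against 586, 573 and 381 in WT libraries 1 to 3. cKO library 2 alone lay below the lowest WT library, and its fold change was -0.44 ± 0.26 with an unadjusted p of 0.120. Bub1b, which encodes BUBR1 of the inhibitory complex, had 1405, 518 and 933 in cKO, against 1602, 1209 and 747 in WT (-0.36 ± 0.38). Ttk, the kinase that starts checkpoint signalling, had 299, 152 and 206 in cKO, against 359.9, 278 and 183 in WT (-0.32 ± 0.30). Bub3, the adaptor of BUB1 and BUBR1, had 1215, 642 and 772 in cKO, against 1288, 976 and 677 in WT (-0.17 ± 0.28). Mad2l1, which encodes the MAD2 protein that captures CDC20, had 947, 522 and 670.0 in cKO, against 892, 953 and 680.0 in WT (-0.27 ± 0.23). It was the only one of the 31 whose highest library was WT library 2, and its level in cKO library 1 exceeded that in WT library 1.

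The genes of anaphase include some of those that ranged most. Cdc20, the activator of the APC/C, had 1183, 283 and 531 normalized counts in cKO libraries 1 to 3, against 1303, 827 and 469 in WT libraries 1 to 3 (log2 fold change -0.50 ± 0.51). Ube2c, the ubiquitin-conjugating enzyme that works with the APC/C, had 576, 137 and 306 in cKO, against 649, 386 and 208 in WT (-0.37 ± 0.54). For both, cKO library 3 was above WT library 3, cKO library 1 was below WT library 1 alone, and cKO library 2 was the lowest of the 6. Pttg1, which encodes securin, had 266, 94.9 and 108 in cKO, against 259.8, 237 and 104 in WT (-0.41 ± 0.45). Espl1, which encodes separase, had 677, 252 and 484 in cKO, against 809.9, 511 and 293 in WT (-0.18 ± 0.42), and its cKO library 3 exceeded WT library 3 by 0.72 on the log2 scale, the most of any of the 31.

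The spindle proteins held the gene with the lowest p. Hmmr encodes a microtubule-binding protein of spindle poles that is also known as a receptor of hyaluronan. It had 526, 273 and 233 normalized counts in cKO libraries 1 to 3, against 691, 605 and 389 in WT libraries 1 to 3. cKO libraries 2 and 3 were below every WT library and cKO library 1 was within the WT range, so the groups overlapped. The means were 344 ± 159 in cKO and 561 ± 156 in WT (SD, n = 3), and the log2 fold change was -0.76 with an interval of -1.49 to -0.024, an unadjusted p of 0.0444 and a limma adjusted p of 0.915. It was also the only one of the 31 whose lowest library was cKO library 3. Nusap1, which binds spindle microtubules near chromosomes, had 931, 363 and 541 in cKO, against 1081, 868 and 584 in WT (-0.53 ± 0.34). Tpx2, the activator of Aurora A, had 1428, 596 and 944 in cKO, against 1778, 1212 and 837 in WT (-0.39 ± 0.35), and Prc1, which bundles the microtubules of the midzone, had 705, 323 and 559.7 in cKO, against 954, 734 and 477 in WT (-0.46 ± 0.32).

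Of the cytokinesis genes, Ect2, the exchange factor that activates RhoA at the division plane, had the second lowest p of the 31 (0.0920, limma adjusted p 0.915). It had 328, 148 and 233 normalized counts in cKO libraries 1 to 3, against 444, 398 and 232 in WT libraries 1 to 3. cKO library 3 and WT library 3 were at almost the same value, and the fold change was -0.62 ± 0.33. Racgap1, the centralspindlin subunit that recruits it, had 1208, 535 and 719 in cKO, against 1414, 1158 and 736 in WT (-0.46 ± 0.32). Anln, the anillin scaffold of the contractile ring, had 181, 81.6 and 118 in cKO, against 229, 132 and 105 in WT (-0.29 ± 0.36). In both genes the lowest library was cKO library 2 and the highest WT library 1. Of the chromosome proteins, Top2a, the topoisomerase that untangles sister chromatids, had 5094, 2215 and 3519 in cKO, against 6939.9, 5126 and 3530.1 in WT (-0.55 ± 0.33, unadjusted p 0.127). Mki67, which encodes the Ki-67 protein that coats mitotic chromosomes, had 10548, 5726 and 8309 in cKO, against 12683, 9827 and 8093 in WT (-0.34 ± 0.26). For Top2a the libraries numbered 3 were almost equal, and for Mki67 cKO library 3 was slightly the higher.

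**Figure D4:**
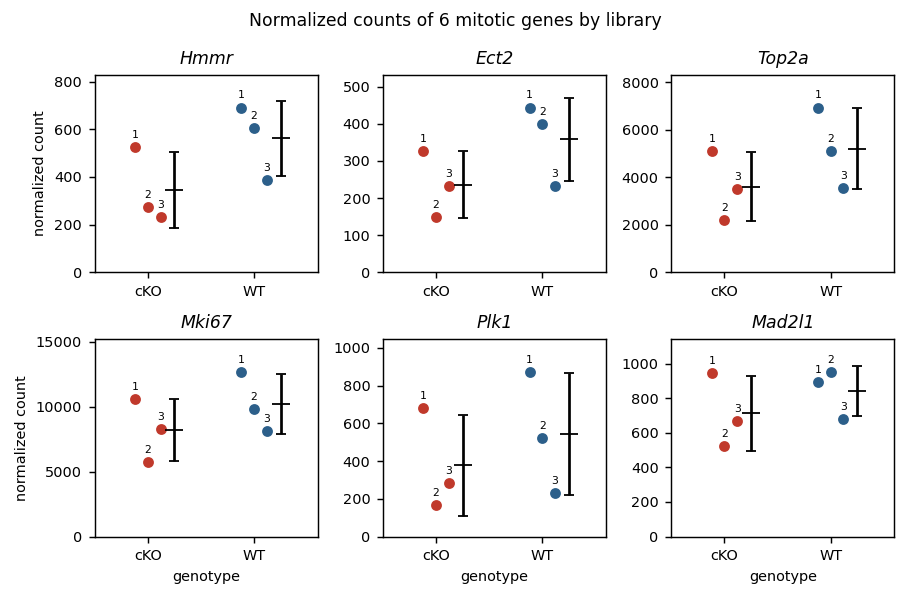
Normalized counts (y axis, from 0) of 6 mitotic genes in the cKO (red) and WT (blue) libraries, with replicate numbers beside the points, and mean ± SD as a black bar. In each gene the ranges of the groups overlap, and in Hmmr cKO libraries 2 (273) and 3 (233) lie below the lowest WT library (389).

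The 31 genes differed in how far they ranged. The level of WT library 1 was 5.35 times that of cKO library 2 for Aurka, 5.17 for Plk1, 4.75 for Ube2c, 4.61 for Cdc20 and 4.22 for Cdc25c. At the other end were Mad2l1 at 1.71, Cdc25b at 1.86, Bub3 at 2.01 and Mki67 at 2.21. The median of this ratio was 2.96 over the 31 genes and 1.05 over the 7030 genes that averaged 100 normalized counts or more. It was at least 2 for 29 of the 31 and for 3.23% of those 7030 genes. These libraries were the highest and the lowest for most of the 31, so the ratio describes their spread and was not tested. The Pearson correlation of a gene's log2 values with the median level of the 31, over the 6 libraries, was at least 0.9 for 29 of the 31 and for 8.61% of the 7030 genes. It was lowest for Hmmr (0.838) and Cdc25b (0.893). Each gene adds to the median it is compared with, and all share the same libraries and size factors, so these values only describe the pattern.

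Set against the median of the 31 in the same library, none of these genes separated the groups (0 of 31). The share over all genes was not computed on this scale, and each gene helps set the median it is compared with. On this scale, the log2 level relative to the other mitotic genes, Hmmr was -0.74, -0.17 and -1.16 in cKO, against -0.47, -0.28 and -0.19 in WT. Its cKO library 2 was thus the highest of all 6, and the group means differed by -0.38, the most of any of the 31. At the other end Cdc25b differed by 0.25, with 1.19, 1.82 and 1.08 in cKO, against 1.08, 0.90 and 1.37 in WT.

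The promoters of these genes are shown because the levels of these genes varied together across libraries, and such genes are known to share CCAAT boxes and the cell cycle homology region. RefSeq promoters on GRCm38.p6, from 250 bases before to 50 after the start site, were found for 26 of the 31 genes, and not for Ccna2, Cdc25c, Aurkb, Tpx2 and Incenp. The stretches below lie wholly before the start site and end at the base next to it. They run 5′ to 3′ on the strand of the gene, and capitals mark CCAAT or its reverse complement ATTGG and TTTGAA or its reverse complement TTCAAA.
Cdk1 (chr10:69352913-69353012, minus strand): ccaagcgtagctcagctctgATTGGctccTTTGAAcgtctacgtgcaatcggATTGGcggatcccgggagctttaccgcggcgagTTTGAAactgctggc
Cdc20 (chr4:118437344-118437423, minus strand): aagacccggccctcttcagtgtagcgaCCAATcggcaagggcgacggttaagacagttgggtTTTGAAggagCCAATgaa
Prc1 (chr7:80294396-80294475, plus strand): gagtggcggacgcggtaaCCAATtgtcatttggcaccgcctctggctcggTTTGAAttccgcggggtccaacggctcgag
Top2a (chr11:99024190-99024299, minus strand): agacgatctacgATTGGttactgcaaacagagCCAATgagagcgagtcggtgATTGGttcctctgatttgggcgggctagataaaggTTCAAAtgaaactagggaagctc
Ube2c (chr2:164769829-164769928, plus strand): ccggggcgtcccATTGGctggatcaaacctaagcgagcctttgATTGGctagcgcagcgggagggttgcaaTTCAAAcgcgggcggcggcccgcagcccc
Espl1 (chr15:102296223-102296292, plus strand): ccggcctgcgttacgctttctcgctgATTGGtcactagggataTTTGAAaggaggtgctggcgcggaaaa
Hmmr (chr11:40733438-40733577, minus strand): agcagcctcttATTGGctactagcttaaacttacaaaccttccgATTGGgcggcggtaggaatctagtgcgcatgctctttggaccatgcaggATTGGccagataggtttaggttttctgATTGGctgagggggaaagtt
Ccnb1 (chr13:100786487-100786606, minus strand): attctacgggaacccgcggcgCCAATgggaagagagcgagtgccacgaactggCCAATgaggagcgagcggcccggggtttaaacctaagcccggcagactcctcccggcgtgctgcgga
Aurka (chr2:172370571-172370640, minus strand): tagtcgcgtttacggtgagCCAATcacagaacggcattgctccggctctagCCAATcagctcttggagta

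CCAAT on either strand was present in 21 of the 26 promoters (80.8%), against 41.1% of the promoters of all 27025 genes in the RefSeq table. TTTGAA, the usual form of the cell cycle homology region, was present in 18 (69.2%), against 20.2% of all genes, and TTCGAA, its rarer form, in 4 (15.4%), against 1.80%. With the 250 bases before the start alone, TTTGAA was present in 10 of the 26 (38.5%), against 18.3% of all genes and 12.9% of the other genes tested. The sites were counted on both strands, and TTCGAA reads the same on either. In Cdca8 a TTTGAA and a CCAAT box share a letter, and in Ube2c a pair of CCAAT boxes on opposite strands overlap. Among the other genes tested that matched the table, the shares in the full window were 43.0% for CCAAT, 14.4% for TTTGAA and 2.43% for TTCGAA. In the promoters printed, Cdk1 holds a CCAAT box and a TTTGAA whose first bases are 48 and 15 bases before the start, and Cdc20 at 53 and 18. In Prc1 these lie 62 and 30 bases before the start, in Top2a 58 and 23, and in Ube2c 57 and 29. A TTTGAA that began 25 to 45 bases after the beginning of a CCAAT box, a spacing chosen after the matches were seen, was found in 12 of the 26 (46.2%) and in 0.87% of all genes. Because of that choice the shares only describe these promoters. In Espl1 the CCAAT box and TTTGAA begin 44 and 27 bases before the start, closer than this spacing. Hmmr holds 5 CCAAT boxes before the start, 4 of them in the stretch printed, and its TTTGAA lies 8 bases past it. In Aurka the TTTGAA lies 32 bases past the start. Ccnb1 holds 2 CCAAT boxes and neither other motif in the window, and Birc5, Mad2l1, Nusap1 and Pttg1 hold none of the 3. The ratio of WT library 1 to cKO library 2 had a median of 3.04 (2.01 to 5.35) over the 18 genes with TTTGAA. It was 2.65 (1.71 to 3.41) over the 8 without. The ranges overlapped, and the difference was not tested. A match describes the letters in the window, and no match says only that they are not in it.

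The size of the negative median depended on single libraries. Leaving out cKO library 2 brought it to -0.064, with 20 of the 31 genes negative, and leaving out WT library 1 brought it to -0.14, with 23 negative. Leaving out cKO library 2 also changes the share of each group that is numbered 1. With a term for the libraries numbered 1, added after the data were seen, the median without cKO library 2 was -0.19, with 28 negative. Without cKO library 1 it was -0.71 and without WT library 3 it was -0.67, in both cases with all 31 negative. Between the libraries numbered 1, 29 of the 31 were lower in cKO and the median difference was -0.21. Between those numbered 2, all 31 were lower in cKO with a median difference of -1.195, and between those numbered 3, 23 of the 31 were higher in cKO with a median difference of 0.17. With the libraries numbered 2 and 3 in 1 fit the median fold change was -0.49. A term for the libraries numbered 1 against the others left the fold changes as they were and narrowed their errors. With that term, 7 of the 31 had an unadjusted p under 0.05, against 4.52% of all genes in the lower direction. They were Hmmr, Top2a, Ect2, Ccnb2, Nusap1, Nek2 and Racgap1. None passed after adjustment over all genes, since the limma adjusted p was 0.396 for Hmmr, 0.480 for Top2a and 0.510 to 0.523 for the others.

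**Figure D5:**
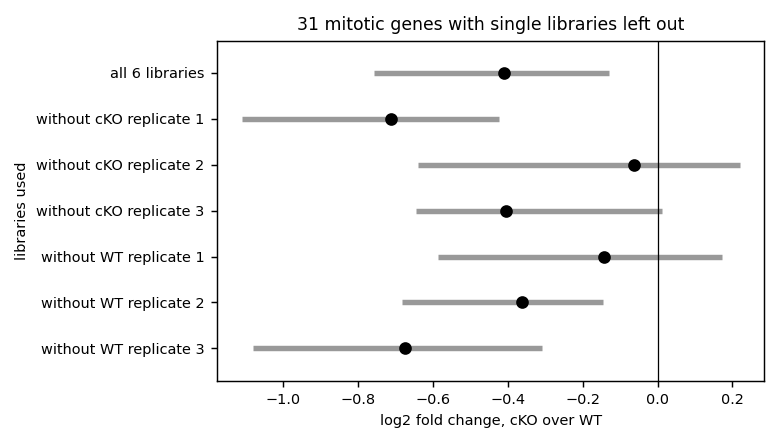
Median log2 fold change of cKO over WT (point) and the range over the 31 mitotic genes (bar), with all 6 libraries and with each library left out in turn (y axis). The median runs from -0.71 without cKO library 1 to -0.064 without cKO library 2, where the bar crosses 0.

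Other genes of the pathway were described in 5 lists, whose medians lay nearer to 0 than that of the 31, and limma called 0 of them. Of 20 regulators of mitotic entry 16 had a negative log2 fold change, against 50.2% of all genes, with a median of -0.23. At an unadjusted p under 0.05 by limma 3 of the 20 were lower, against 2.17% of all genes. Lin52, a MuvB subunit, had 83.5, 41.8 and 73.5 in cKO, against 110.2, 104 and 109 in WT, with every cKO library below every WT library. Lin9, another MuvB subunit, had 100.3, 89.2 and 102 in cKO, against 123, 120.3 and 155 in WT, again without overlap. Of the other MuvB subunits listed, Lin54 was lower without overlap (log2 fold change -0.29) and Lin37 was higher with overlap (0.15). Of the 20 regulators 4 had every cKO library below every WT library, against 5.28% of all genes. Mastl, the kinase that restrains the phosphatase opposing CDK1, overlapped, with 119.8, 53.1 and 77.6 in cKO, against 140.0, 147 and 105 in WT. Foxm1, the transcription factor named above, had the commonest library order of the 31 genes, with 724, 258 and 576 in cKO, against 897, 621 and 443 in WT. Of 17 APC/C subunits and regulators 13 had lower means, with a median of -0.15. The lowest p of these was that of Ube2s (634, 539 and 676 in cKO, against 731, 844 and 658 in WT), which extends ubiquitin chains on APC/C targets. Anapc10, a subunit that helps bind substrates, had 90.6, 56.9 and 75.6 in cKO, against 81.4, 106 and 95.7 in WT. Anapc1, the scaffold, had 1016, 1029 and 1027 in cKO, against 1208, 1219 and 1047 in WT, where the groups did not overlap but lay close. Of 9 accessory proteins of the checkpoint 6 had lower means, with a median of -0.19. The smallest p-values were those of Knl1, the kinetochore scaffold of BUB1 and BUBR1 (411, 205 and 284 in cKO, against 500.5, 386 and 334 in WT), and of Kntc1 and Spdl1, which act in dynein recruitment, and all 3 overlapped.

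Condensin, which compacts mitotic chromosomes, had lower means in 7 of 8 genes with a median of -0.32. Ncapg2, a condensin II subunit, had 712, 537 and 545 normalized counts in cKO libraries 1 to 3, against 933, 1026 and 728 in WT libraries 1 to 3, without overlap (log2 fold change -0.58 ± 0.18, limma adjusted p 0.915). Smc2, a core subunit of both condensins, had 1037, 676 and 776 in cKO, against 1171, 1166 and 835 in WT, and Ncapg, a condensin I subunit, had 803, 433 and 656 in cKO, against 802, 909 and 636 in WT, and in both the groups overlapped. Cohesin, which holds sister chromatids together, had lower means in 13 of 13 genes with a median of -0.34. The median log2 deviation of the cohesin genes by library was -0.045, -0.32 and -0.22 in cKO, against 0.18, 0.32 and 0.075 in WT, so that every cKO library was below every WT library. Of the 13 cohesin genes 6 had every cKO library below every WT library, against 0 of the 31 mitotic genes and 5.28% of all genes. Pds5b, a cohesin regulator, had 645, 581 and 635 in cKO, against 817, 817 and 862 in WT (unadjusted limma p 0.00654). Smc3, a core subunit, had 1196, 941 and 1091 in cKO, against 1395, 1585 and 1300.3 in WT (p by limma 0.0192). Wapl, which releases cohesin from DNA, had 1285, 1308 and 1228 in cKO, against 1478, 1800.2 and 1585 in WT (p by limma 0.0241). Their limma adjusted p was 0.915 each, so none passed.

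Per kilobase of annotated exon, Mki67 was the most abundant of the 31 in all 6 libraries, at 815 ± 240 normalized counts per kb in cKO and 1014 ± 230 in WT (SD, n = 3). Top2a followed at 401 ± 160 in cKO and 577 ± 189 in WT, then Ccnb2 at 386 ± 183 in cKO and 528 ± 145 in WT. Cdc20 (356 ± 249 in cKO and 464 ± 224 in WT) and Cdc25b (376 ± 143 in cKO and 405 ± 121 in WT) had lower means. Ranked within each library, Cdc20 followed Mki67 in cKO library 1, Cdc25b did in cKO library 2 and Top2a did in the others. The lowest were Anln at 14.0 ± 5.52 in cKO and 17.1 ± 7.19 in WT and Cdc25c at 23.8 ± 13.9 in cKO and 27.5 ± 9.31 in WT. Anln was the lowest in every library except cKO library 2, where Cdc25c was. Exons of 11 of the 31 overlap another gene in GENCODE M21, 10 of them on the other strand, with the largest shares for Ube2c (22.8% of its exon bases, with Tnnc2), Cdc25c (12.7%), Ccna2 (12.5%, with Exosc9) and Prc1 (11.1%, with Rccd1). Whether the counting used strand was not given in the sources used here, so reads of such partners cannot be told apart. The pseudogene Ccnb2-ps had 12 reads over all libraries, against 5565 for Ccnb2.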

How the data were processed

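Sorted GC B cells of 3 cKO and 3 WT libraries were sequenced from total RNA, grouped by the titles in the labels. The submitters' processing notes list the tools DESeq2, HTSeq, SAMtools, HISAT, HISAT2 and TopHat2, with neither version nor order, and the build mm10. The authors deposited a signal per gene and library (counts divided by a size factor), with their log2 fold change, test score, p-value and adjusted p-value, per the file headers. Every value was a whole multiple of the worth of 1 read (100% within 0.01 read), so reads were recovered. 1 read is worth 0.506 to 2.04 normalized counts. On these reads edgeR 4.0.16 called 0 genes and DESeq2 1.42.0 called 23.

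Since the values are normalized, the test was limma 3.58.1 (R 4.3.3) with its trend option, applied to log2 of the value plus 1 for 14678 genes (mean 1 or higher), with genotype as the sole term. This scale understates the change of low genes. The script was tested on simulated data. Rows with no gene symbol (10) held 0.00164% of reads. Alternatives varied the pseudocount, filter, scaling, tool, model and libraries. The genes named were all 31 mitotic genes, Senp1, the 3 genes of each pathway list with the smallest p and the 10 genes most like the mitotic ones. Foxm1, Lin54, Lin37 and the marker genes were chosen after their values were seen. The mitotic genes and all lists were chosen with earlier results of these data known, and 2 alternatives were added after the data were seen. Exon lengths and overlaps come from GENCODE M21 (GRCm38), and promoters from RefSeq (GRCm38.p6).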

Additional observations from a re-analysis of the deposited data

How the results depend on the processing

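None of the 31 genes passed under any of the 19 alternatives. The lowest adjusted p was 0.0851, for Hmmr by DESeq2 with the replicate 1 term, a fit added after the data were seen. In that fit 9 of the 31 were lower at an unadjusted p under 0.05, as were 462 of the 19680 genes in the table. The 462 were counted over all genes given a p, low counts included, while 11667 genes were given an adjusted p. Without cKO library 1, 12 of the 31 were lower at an unadjusted limma p under 0.05, as were 637 of the 14652 genes tested. The median log2 fold change of the 31, -0.41 with all 6 libraries, ran from -0.71 to -0.064 with single libraries left out. The number of negative ones ran from 20 to 31. Under the other settings the median was -0.49 to -0.19. With single libraries left out, 12 genes changed sign, and their log2 fold changes ran from -0.71 to 0.039 for Ccnb1, -0.42 to 0.10 for Cdc25b, -0.79 to 0.22 for Cdc25c, -0.98 to 0.12 for Aurka, -0.60 to 0.021 for Aurkb, -0.70 to 0.018 for Bub1b, -0.43 to 0.055 for Bub3, -0.87 to 0.17 for Ube2c, -0.58 to 0.026 for Birc5, -0.48 to 0.16 for Incenp, -0.56 to 0.21 for Espl1 and -0.58 to 0.032 for Anln. The positive values came without cKO library 2, without WT library 1 and, for Cdc25b, also without cKO library 3. With a term for replicate 1 and cKO replicate 2 left out, 16 genes of the whole table were called. In that fit 28 of the 31 were negative, and Cdc25c (0.11), Incenp (0.053) and Espl1 (0.074) were positive. Over the table DESeq2 called 23 genes, limma with the term for replicate 1 called 3 and DESeq2 with it 74, in place of 0. Senp1 passed in these fits, at a log2 fold change of -1.17 by DESeq2, -1.16 by limma with the term, -1.17 by DESeq2 with it and -1.21 with cKO replicate 2 also left out. Scaling by library totals alone moved the median of all genes to -0.078, with 59.0% of them negative.

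The labels call the mice paired without saying how the pairs are numbered. The correlations of same-numbered deviations from the group means were 0.692, 0.054 and 0.309, so the numbers were not taken as pairs, and not every library was most like its own number. A replicate block called 1 gene of the table and 0 of the 31, of which 7 were lower at an unadjusted p under 0.05, against 4.31% of all genes. TTTGAA was found in 38.5% of the matched promoters and 18.3% of all promoters when the 250 bases before the start alone were searched. The depth of cKO libraries 2 and 3 limits genes of low count, such as Cdc25c. The causes were not tested.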

Other observations

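Genes outside the 31 with the same pattern over the 6 libraries were sought among 8192 genes with a mean of at least 50 normalized counts. The Pearson correlation with the median level of the mitotic genes, which describes likeness over these 6 libraries and was not tested, was highest, leaving out Gm and Rik names, for Kif4, Gmeb1, Kif20a, Kif23, Rrm2, Ruvbl1, Kpna2, Mrpl18, Desi1 and Ncapd2, at 0.9974 to 0.9937. Kif4, Kif20a and Kif23 encode motor proteins of the spindle midzone. Kif4 had normalized counts of 705, 258 and 435 in cKO, against 827, 644 and 403 in WT, and Kif23 had 1108, 457 and 748 in cKO, against 1262, 993 and 698 in WT. Rrm2, a subunit of ribonucleotide reductase, which makes DNA precursors in S phase, had 1769, 795 and 1139.8 in cKO, against 1985, 1682 and 1105 in WT. Ruvbl1, an ATPase of chromatin remodelers, ranged less and had 572, 397 and 480.0 in cKO, against 583, 547 and 456 in WT. Desi1, which encodes another protease that removes SUMO, ranged less still and had 353, 292 and 319 in cKO, against 356, 339.6 and 308 in WT. In each of these 5 genes the groups overlapped.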
